A study of Mus musculus with 14 samples.

Results

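Fibro-adipogenic progenitors (FAPs) from muscle labelled SMA were compared with FAPs from wild-type (WT) muscle, 3 days after an injury made with BaCl2. The comparison takes the 3 SMA and 3 WT libraries whose batch label is BaCl2, 6 of the 14 libraries of the series, and every gene of their count table. SMA is read here as spinal muscular atrophy, a disease of motor neurons and muscle that follows from too little survival motor neuron (SMN) protein. All 6 libraries are labelled as primary FAPs of the TA muscle, a mesenchymal stromal cell, isolated with MACS (magnetic beads that hold antibody-bound cells back on a column), and RNA was extracted from the fresh cells without culture. The genotype label (SMA or WT) is the only stated difference between the groups, and both had the same injury and the same time after it. The SMA allele, strain, age, number of animals per library and sorting antibodies are not stated in the labels. Injected BaCl2 destroys muscle fibres, which then regenerate.

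FAPs lie between muscle fibres and along vessels, carry the receptor PDGFRA and are the main source of collagen in muscle. After injury they multiply, secrete matrix, chemokines and growth factors for the muscle stem cells, and are later cleared, while FAPs that persist can form fat or scar. Monocytes and macrophages enter the same tissue in the first days, engulf dead fibres, and signal to FAPs through cytokines such as TNF and TGF-beta, so their RNA can accompany stromal RNA sorted from injured muscle.

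The libraries held 97.7 to 136 M counts (M, mega), lowest in SMA library 1, with 0.618% to 0.941% of counts on mitochondrially encoded genes, highest in SMA library 1. All levels are given as CPM, counts per M of the library after TMM scaling, in the order of libraries 1, 2 and 3 of each group. A log2 fold change is SMA minus WT, and a number in brackets after a gene, or the amount by which it changed, is its log2 fold change. A gene passed at a Benjamini-Hochberg adjusted p under 0.05 in edgeR's quasi-likelihood F test over the 20119 genes tested. Nothing in the labels says that replicates came from separate animals, so p-values here reflect library-to-library spread alone, and that spread may be technical. Pdgfra, the defining receptor of FAPs, was at 714, 1015 and 876 CPM in the SMA libraries and 822, 923 and 940.2 CPM in the WT libraries, with overlapping groups and a log2 fold change of -0.04 (SE 0.11, adjusted p = 0.889). Muscle fibre markers summed to 6.21 to 8.83 CPM per library, and Pax7, the satellite cell factor, stayed at 0.039 to 0.124 CPM. The pan-leukocyte gene Ptprc was at 76.6, 70.2 and 65.1 CPM in the SMA libraries and 45.9, 28.3 and 37.7 CPM in the WT libraries, so no library was free of leukocyte transcript. In a bulk library more cells of a type and more RNA per cell cannot be told apart, and the same holds for fewer cells and less RNA.

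Smn1, which encodes the SMN protein, was at 11.96, 9.99 and 11.3 CPM in the SMA libraries and 15.8, 17.1 and 15.3 CPM in the WT libraries. No SMA library reached the WT range, and the log2 fold change was -0.54 (SE 0.09, adjusted p = 0.0131). Because the altered part of the gene is not named, this level checks the labels only if the counted reads cover it. With 1 library left out the adjusted p reached 0.0752 at most, and the gene passed in 3 of the 6 such fits. Of the 8 SMN complex genes tested the other 7 did not pass, and the median of the 8 was 0.02.

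In edgeR's test rises outnumbered falls and were larger. It called 863 genes (4.29% of those tested), with 549 higher (2.73%) and 314 lower in SMA (1.56%). The balance of directions depended on the tool, since limma voom with sample weights called 2025 higher and 2090 lower. All 863 had every SMA library on one side of every WT library, a separation seen at 25.3% of the genes tested (12.2% with SMA higher and 13.1% with SMA lower). The higher genes had a median log2 fold change of 0.84 at a median level of 16.6 CPM. The lower genes had a median of -0.41 at a median level of 49.4 CPM, and 97 of them lay at 100 CPM or more, against 52 of the higher genes. The median log2 fold change of all genes tested was -0.0028.

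**Figure D1:**
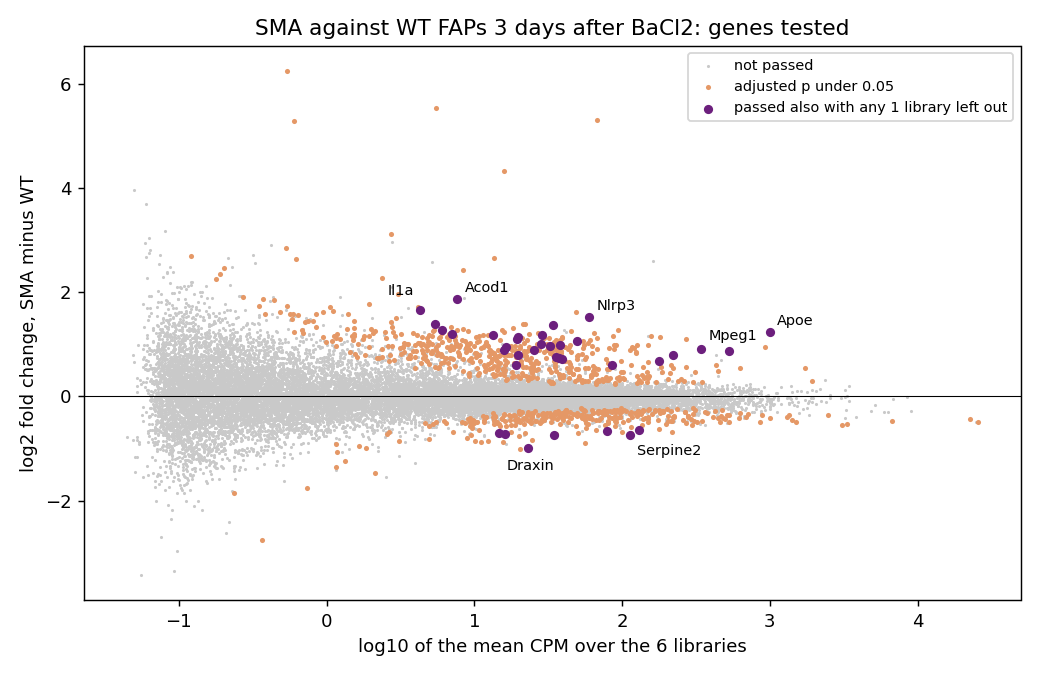
Log2 fold change (SMA minus WT, vertical axis) against log10 of the mean CPM of the 6 libraries (horizontal axis) for the 20119 genes tested. Orange points passed with all libraries, and purple points are the 36 genes that also passed with any 1 library left out. The called falls sit closer to 0 than the called rises and reach further to the right.

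The SMA libraries did not differ from WT to the same degree. Among the 549 higher genes SMA library 1 lay farthest from the WT mean at 400, SMA library 2 at 110 and SMA library 3 at 39. Among the 314 lower genes the same counts were 224, 40 and 50. SMA library 3 was the one nearest to the WT mean at 430 of the higher and 181 of the lower genes. Hal, an enzyme of histidine breakdown, was at 15.99, 15.9 and 0.51 CPM in the SMA libraries and 0.205, 0.251 and 0.241 CPM in the WT libraries, and Pianp, a membrane protein gene, was at 73.9, 14.6 and 2.72 CPM in the SMA libraries and 1.48, 1.22 and 1.85 CPM in the WT libraries. At both of these SMA library 3 lay nearer to WT than to the other SMA libraries. Other genes with a large fold change differed in this, and Acod1, the itaconate synthase gene (1.87), was at 9.30 CPM in SMA library 3 and 12.9 CPM in SMA library 2, against 3.44 CPM at most in WT.

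A small set of genes passed whichever library was left out. These were 36 of the 863 called genes (0.179% of all genes tested), 29 higher and 7 lower, with adjusted p no higher than 0.0471 in any of the 6 reduced fits. They had been selected for stability in these same libraries, so their low p-values are a description of the set.

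**Figure D2:**
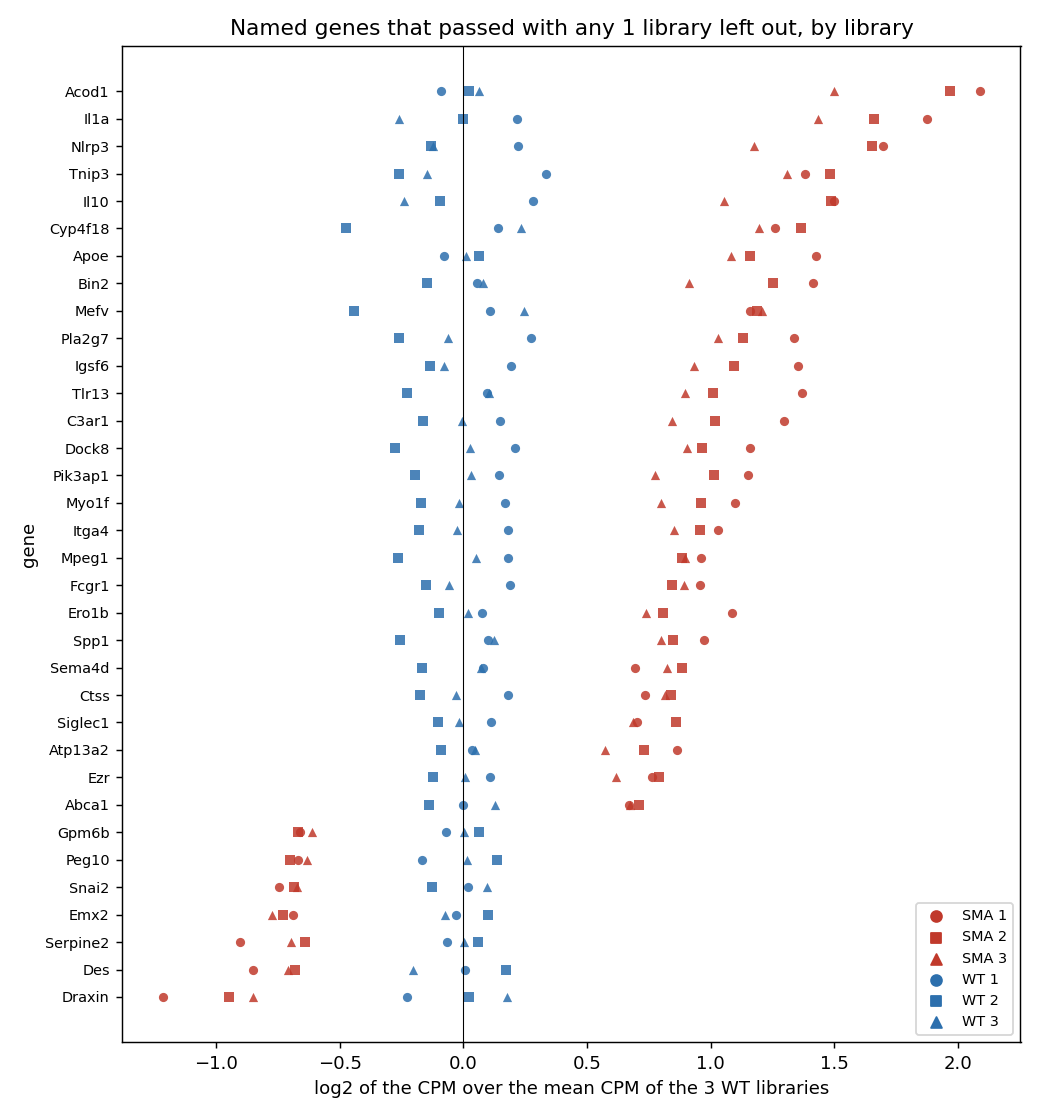
Log2 of the CPM of each library over the mean CPM of the 3 WT libraries, for 34 of the 36 genes that passed with any 1 library left out (the other 2 are not drawn). Red symbols are SMA and blue symbols WT libraries, with the symbol shape giving the replicate number. No red and blue symbols overlap in any row, and SMA library 3 is the SMA library nearest WT at Nlrp3, Il10, Il1a and Acod1.

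Genes of the inflammasome and of cytokine control were among the stable rises. Nlrp3, the sensor that assembles an inflammasome, was at 100.1, 97.2 and 69.8 CPM in the SMA libraries and 36.1, 28.3 and 28.4 CPM in the WT libraries. All SMA libraries lay above WT, with SMA library 3 the lowest of them, and the log2 fold change was 1.52 (SE 0.14, adjusted p = 0.00373). Il1a, an alarm cytokine of the interleukin-1 family, was at 7.58, 6.53 and 5.58 CPM in the SMA libraries and 2.40, 2.07 and 1.73 CPM in the WT libraries, and changed by 1.67 (SE 0.17, adjusted p = 0.00376). Il10, an anti-inflammatory cytokine, was at 53.7, 53.3 and 39.4 CPM in the SMA libraries and 23.1, 17.8 and 16.1 CPM in the WT libraries, with a log2 fold change of 1.36 (SE 0.15, adjusted p = 0.00376). The same 3 libraries were thus higher for both an inflammatory and an anti-inflammatory cytokine gene. Mefv, which encodes the inflammasome protein pyrin, was at 18.3, 18.6 and 18.9 CPM in the SMA libraries and 8.81, 6.02 and 9.68 CPM in the WT libraries (1.18, adjusted p = 0.00597), and Tnip3, an inhibitor of NF-kB signalling, at 7.79, 8.36 and 7.42 CPM in the SMA libraries and 3.78, 2.50 and 2.70 CPM in the WT libraries (1.39, adjusted p = 0.00416).

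Phagocyte genes were a further part of the stable rises, and at the first 3 given here SMA library 3 was level with the other two. Fcgr1, the high-affinity Fc receptor for IgG, was at 34.4, 31.9 and 32.96 CPM in the SMA libraries and 20.2, 15.99 and 17.02 CPM in the WT libraries. Mpeg1, which encodes the pore-forming perforin-2 of macrophages, was at 463, 439 and 444 CPM in the SMA libraries and 269.8, 198 and 246 CPM in the WT libraries. Ctss, the lysosomal protease cathepsin S, was at 269, 289 and 284 CPM in the SMA libraries and 183, 143 and 158 CPM in the WT libraries. Their log2 fold changes were 0.90, 0.91 and 0.80, each with an adjusted p = 0.00376. Siglec1, the macrophage sialoadhesin (0.75), the integrin gene Itga4 (0.95), the bacterial RNA sensor gene Tlr13 (1.10) and the anaphylatoxin receptor gene C3ar1 (1.06) rose as well.

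Abca1 and Apoe, the transporter that exports cellular cholesterol and the lipoprotein that accepts it, were both in the stable set. Abca1 was at 218, 224 and 218 CPM in the SMA libraries and 136, 124 and 149.5 CPM in the WT libraries, and changed by 0.69 (SE 0.07, adjusted p = 0.00376). Apoe was at 1607, 1336 and 1266 CPM in the SMA libraries and 567, 624 and 602 CPM in the WT libraries, and its log2 fold change of 1.23 had the smallest p of all genes tested. Spp1, the secreted phosphoprotein osteopontin, was at 733, 672 and 649 CPM in the SMA libraries and 400.3, 312 and 407 CPM in the WT libraries, and changed by 0.88 (SE 0.10, adjusted p = 0.004). At all 3 genes the lowest SMA library was above the highest WT library by more than the range within either genotype.

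The 7 stable falls were of another kind, and none is a macrophage marker. Serpine2, a secreted inhibitor of thrombin and plasminogen activators also called protease nexin-1, was at 76.04, 91.3 and 87.6 CPM in the SMA libraries and 136, 148 and 142 CPM in the WT libraries, and changed by -0.74 (SE 0.08, adjusted p = 0.00376). Gpm6b, a membrane glycoprotein of the proteolipid family, was at 100.2, 99.6 and 104 CPM in the SMA libraries and 151, 166 and 159 CPM in the WT libraries, and changed by -0.65 (SE 0.06, adjusted p = 0.00373). Draxin, a secreted axon guidance protein, was at 13.3, 15.99 and 17.1 CPM in the SMA libraries and 26.4, 31.3 and 34.9 CPM in the WT libraries (-0.99). At all 3 the SMA libraries lay below every WT library. Des, the intermediate filament gene desmin of muscle and of mural cells, was at 23.98, 26.98 and 26.5 CPM in the SMA libraries and 43.5, 48.8 and 37.6 CPM in the WT libraries (-0.74). Snai2, a repressor that keeps cells mesenchymal, was at 10.8, 11.3 and 11.3 CPM in the SMA libraries and 18.3, 16.6 and 19.3 CPM in the WT libraries (-0.70). The homeobox gene Emx2 (-0.73) and the imprinted gene Peg10 (-0.67) completed the set.

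Macrophage markers moved together and by library. Of 26 markers tested 23 were higher, 0 lower and 3 did not pass, with a median of 0.92. Their summed level was 3820, 3170 and 2620 CPM in the SMA libraries and 1990, 1440 and 1560 CPM in the WT libraries, so the genotypes did not overlap, and the lowest SMA library stood nearer to the highest WT library than to SMA library 1. Csf1r, the growth factor receptor of macrophages, followed that order at 189.5, 164 and 127 CPM in the SMA libraries and 104, 79.6 and 85.2 CPM in the WT libraries (0.84, adjusted p = 0.0123). The 3 markers that did not pass were Mrc1, Ly6c2 and Cd163, and Cd163, a scavenger receptor of resident macrophages, was at 27.3, 10.1 and 2.73 CPM in the SMA libraries and 4.94, 2.80 and 3.09 CPM in the WT libraries. With SMA libraries 1 and 2 both left out, 6 of the 26 were called higher (0.324% of all genes then tested) and the median was 0.65. With single libraries left out, 2 to 25 of the 26 were called. The 2 came from the fit without WT library 3, where 0.196% of all genes were called. The 25 came from the fit without SMA library 3, where 7.57% were. The core site of PU.1, the myeloid factor that Spi1 encodes, searched as GAGGAAGT on either strand in the 250 bases before the start, stood in 2 of the 19 markers with a RefSeq promoter window (C1qc and Ly6c2) and in 2.79% of all genes with one.

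Receptors by which phagocytes bind their targets rose with the markers. Of 25 tested 18 were higher, 0 lower and 7 did not pass, with a median of 0.89. The activating receptor gene Fcgr3 was at 56.3, 50.8 and 37.9 CPM in the SMA libraries and 26.1, 20.6 and 21.6 CPM in the WT libraries (1.08), and the inhibitory receptor gene Fcgr2b at 47.3, 42.2 and 35.3 CPM in the SMA libraries and 24.6, 19.3 and 18.6 CPM in the WT libraries (0.996), so activating and inhibitory Fc receptors rose side by side. The fungal receptor genes Clec4e (1.21), Clec4d (1.20) and Clec7a (0.86) and the scavenger receptor genes Msr1 (1.25) and Olr1 (1.26) rose too. Of 17 genes of Toll-like receptors and their co-receptor Cd14, 6 were higher and 0 lower (median 0.30). The 6 were Cd14, the bacterial lipoprotein receptor gene Tlr2 and the endosomal nucleic acid sensors Tlr7, Tlr8, Tlr9 and Tlr13.

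Genes of lipid-handling and repair macrophages were higher in 12 of 25, lower in 0 and did not pass in 13 (median 0.52). Beside Apoe, Abca1 and Spp1 they included the sterol exporter gene Abcg1 (0.46), the phospholipid transfer protein gene Pltp (0.50), the lipid-sensing receptor gene Trem2 (0.59) and the glycoprotein gene Gpnmb (0.60). Trem2 was at 32.2, 30.3 and 27.6 CPM in the SMA libraries and 23.1, 18.2 and 18.4 CPM in the WT libraries. Gpnmb was at 230.4, 288 and 255 CPM in the SMA libraries and 191, 143 and 175 CPM in the WT libraries, with SMA library 2 the highest. Of 42 lysosomal genes 10 were higher, 2 lower and 30 did not pass (median 0.12). The rises included the cathepsin genes Ctsb (0.54), Ctsc (0.56) and Ctsd (0.48) and the legumain gene Lgmn (0.59), and the falls were the collagen-degrading cathepsin gene Ctsk (-0.38) and Ctsh (-0.25).

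Antigen presentation and complement moved in part only. Of 11 MHC class II pathway genes 2 were higher (Ctss and the lysosomal thiol reductase gene Ifi30), and the other 9 did not pass (median 0.39). Of 17 complement genes 5 were higher, 0 lower and 12 did not pass, with a median of -0.06. The 5 were the C1q chain genes C1qa (0.92), C1qb (0.95) and C1qc (0.97) and the receptor genes C3ar1 and C5ar1 (1.08), all of which macrophages express. C1qb was at 184, 151 and 124 CPM in the SMA libraries and 96.4, 71.2 and 69.4 CPM in the WT libraries, with the SMA libraries in the same order as in the summed macrophage markers. The 6 macrophage-related lists were markers, phagocytic and Fc receptors, Toll-like receptors, MHC class II, lysosome, and lipid-laden and repair genes. Over them 131 distinct genes were tested, 60 were higher, 2 lower and the median was 0.47. Among all genes tested 2.73% were higher and 1.56% lower. Without WT library 3 each of the 6 lists held 1 to 4 called genes, where 0.196% of all genes were called. The lists were chosen with earlier results of these data known.

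**Figure D3:**
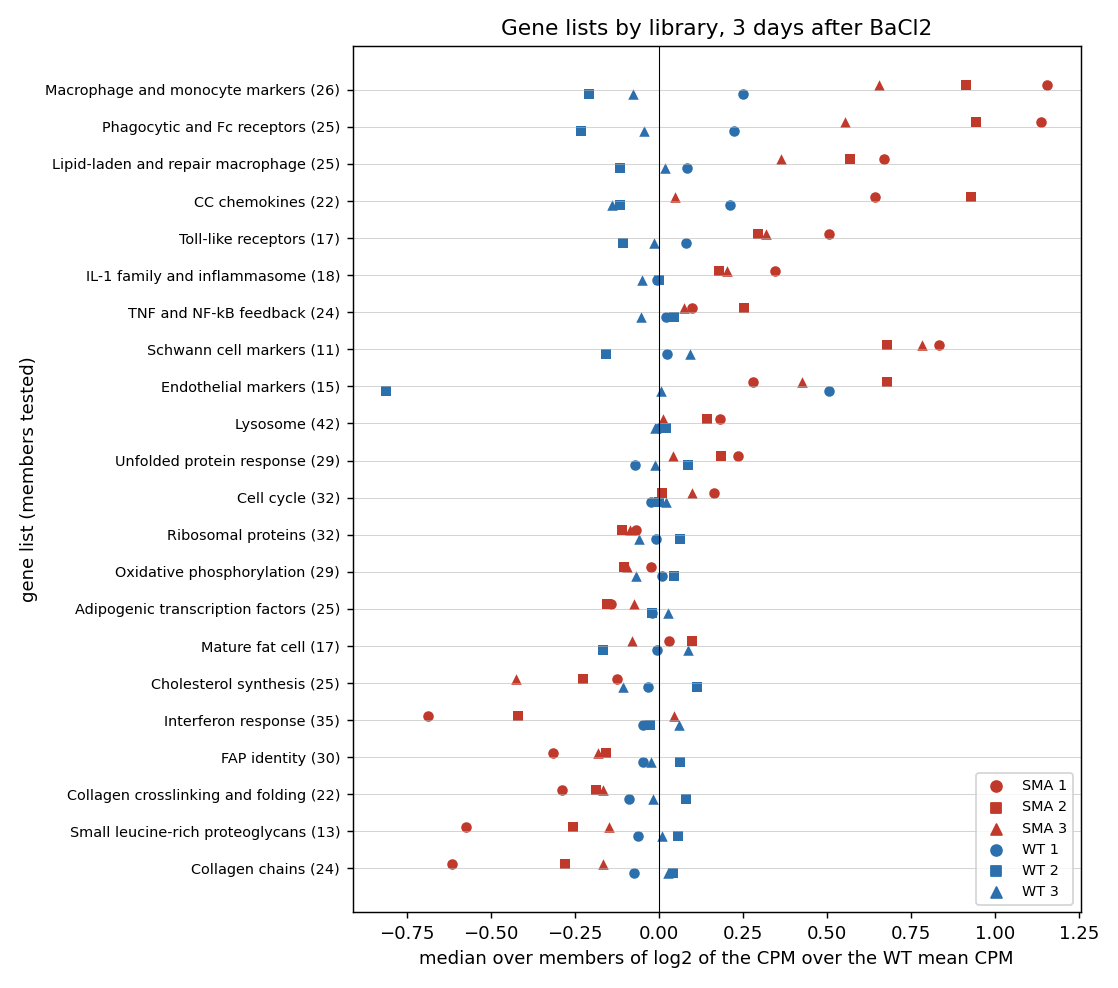
Median over the tested members of each gene list of log2 of the CPM in a library over the WT mean CPM, with the number of members tested in brackets. Red symbols are SMA and blue symbols WT libraries. The macrophage lists lie to the right in all SMA libraries, the matrix lists to the left, and the interferon list reaches -0.69 in SMA library 1 and 0.04 in SMA library 3.

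Cytokine genes of the interleukin-1 and TNF families rose in part. Of 18 interleukin-1 family and inflammasome genes 5 were higher, 0 lower and 13 did not pass (median 0.24). Besides Nlrp3, Il1a and the itaconate synthase gene Acod1 (1.87), they were Il1b (1.13) and the receptor antagonist gene Il1rn (1.03). Il1b was at 97.1, 100.1 and 82.7 CPM in the SMA libraries and 59.5, 31.8 and 36.6 CPM in the WT libraries, and WT library 1 was the highest of its group. Of 24 TNF and NF-kB feedback genes 9 were higher, 0 lower and 15 did not pass (median 0.21). Tnf was at 68.9, 63.8 and 42.99 CPM in the SMA libraries and 27.97, 31.2 and 29.8 CPM in the WT libraries (0.98, adjusted p = 0.00847), with SMA library 3 the lowest SMA library. Its receptor gene Tnfrsf1b was at 199.7, 190.3 and 158 CPM in the SMA libraries and 122, 116 and 110.4 CPM in the WT libraries (0.65). The feedback inhibitor genes Tnfaip3 (0.46) and Tnip1 (0.33) rose as well.

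Chemokine ligands and receptors did not move alike. Of 22 CC and CX3C genes 7 were higher, 1 lower and 14 did not pass, with a median of 0.65. The monocyte receptor genes Ccr2, Cx3cr1 and Ccr1 rose with the ligand genes Ccl3 (0.97), Ccl4 (0.77) and Ccl6 (1.61), while Ccl2, the main stromal ligand of CCR2, was at 889, 784 and 578 CPM in the SMA libraries and 776, 974 and 757 CPM in the WT libraries and did not pass (-0.15, adjusted p = 0.632). Cx3cr1 was at 21.1, 22.2 and 23.5 CPM in the SMA libraries and 12.3, 7.57 and 8.62 CPM in the WT libraries (1.23), with all SMA libraries above WT. Its ligand gene Cx3cl1 was at 55.5, 57.97 and 62.9 CPM in the SMA libraries and 75.6, 84.2 and 83.3 CPM in the WT libraries (-0.46), with all SMA libraries below WT. Receptor and ligand therefore had opposite signs, and so did the pair of Cxcr4 and Cxcl12. Cxcr4 was at 51.8, 46.99 and 49.4 CPM in the SMA libraries and 32.1, 21.5 and 29.9 CPM in the WT libraries (0.83), and Cxcl12, a stromal retention signal for leukocytes and progenitors, at 1104, 1320 and 1314 CPM in the SMA libraries and 1718, 1677 and 1887 CPM in the WT libraries (-0.50). The list median of the CC and CX3C genes per library was 0.64, 0.93 and 0.05 in SMA libraries 1, 2 and 3.

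Of 16 genes of the interleukin-6 family 3 were higher, 2 lower and 11 did not pass, with a median of -0.14. Il11, a fibroblast cytokine linked to fibrosis, was at 51.04, 47.8 and 63.1 CPM in the SMA libraries and 32.3, 38.7 and 31.4 CPM in the WT libraries, and changed by 0.66 (SE 0.11, adjusted p = 0.0132). SMA library 3 was the highest of all, while for the summed macrophage markers it was the lowest SMA library. Lifr, the receptor for leukaemia inhibitory factor, was at 75.5, 89.8 and 89.5 CPM in the SMA libraries and 111, 117 and 131 CPM in the WT libraries (-0.49). Il6 itself was at 411, 384 and 358 CPM in the SMA libraries and 579.8, 499 and 460.2 CPM in the WT libraries (-0.42, adjusted p = 0.0293), lower in every SMA library, while the macrophage cytokine gene Osm (0.92) and the receptor gene Il6ra (0.46) rose. Il11 kept its sign without SMA libraries 1 and 2 (0.89, adjusted p = 0.0245).

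Markers of other cells differed less evenly. Of 8 neutrophil markers tested 2 were higher (Csf3r 1.16 and Trem1 1.72) and 6 did not pass, with a median of 1.12. The share of all genes called higher was 2.73%. All 13 neutrophil markers in the count table summed to 19.7 to 37.6 CPM in SMA and 9.67 to 13.9 CPM in WT libraries. Of 11 Schwann cell markers 4 were higher and 0 lower (median 0.84), and SMA libraries 1, 2 and 3 had list medians of 0.83, 0.68 and 0.78, so that no SMA library was closer to WT by much. Among those higher, Erbb3, the neuregulin receptor of Schwann cells, was at 2.03, 2.46 and 1.78 CPM in the SMA libraries and 0.719, 0.623 and 0.739 CPM in the WT libraries (1.59). The summed levels of all 12 Schwann cell markers in the count table overlapped all the same. They were 350 to 386 CPM in SMA and 368 to 386 CPM in WT libraries. Egr2 and Pmp22, the members with the most counts, did not pass (-0.15 and -0.0004). Of 7 lymphocyte markers only the interleukin-7 receptor gene Il7r passed (1.13). Of 8 dendritic, 2 mast cell, 15 endothelial, 8 satellite cell, 11 muscle fibre, 8 tendon cell and 6 erythroid or platelet markers none passed. Their medians were, in that order, -0.09, 0.73, 0.45, 0.19, -0.009, 0.31 and 0.54. At 14 of the 15 endothelial markers the log2 fold change was above 0. The endothelial sum was 343 to 471 CPM in SMA and 183 to 433 CPM in WT libraries, lowest in WT library 2. Of 13 pericyte and smooth muscle markers Rgs5 rose (0.82) and Des, Acta2 (-0.45) and Myl9 (-0.35) fell.

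FAP identity genes were lower where they moved. Of 30 tested 0 were higher, 6 lower and 24 did not pass, with a median of -0.22 and a summed level of 12300, 14500 and 14000 CPM in the SMA libraries and 15100, 17200 and 15800 CPM in the WT libraries. Twist1, a mesenchymal transcription factor, was at 51.3, 52.99 and 54.9 CPM in the SMA libraries and 68.2, 74.4 and 72.4 CPM in the WT libraries, and changed by -0.43 (SE 0.06, adjusted p = 0.00666). Meox2, a mesoderm homeobox factor, was at 71.1, 81.3 and 85.8 CPM in the SMA libraries and 108, 105 and 104 CPM in the WT libraries (-0.41), and Cd248, the stromal membrane protein endosialin, at 228, 254 and 248 CPM in the SMA libraries and 300.5, 340.1 and 309.7 CPM in the WT libraries (-0.38). Vcam1 (-0.47), Ly6a (-0.50) and Lum (-0.33) were the other 3. All 6 had the SMA libraries below every WT library, as had all 314 genes called lower and 13.1% of all genes tested. The share of all genes called lower was 1.56%. With single libraries left out 0 to 8 of the 30 were called, and 0 passed when WT library 3 was missing. The summed macrophage markers were higher in each of these SMA libraries, by the values above, and their part in the falls was not tested.

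Collagen genes that passed were lower by modest amounts. Of 24 collagen chain genes 0 were higher, 6 lower and 18 did not pass, 23 of the 24 had a negative sign, and the median was -0.30. Collagen transcripts summed to 76300, 83900 and 99600 CPM in the SMA libraries and 110000, 122000 and 120000 CPM in the WT libraries, so SMA library 3 lay between the rest of its group and WT. Col3a1, the chain of type III collagen, was at 19160, 20990 and 23700 CPM in the SMA libraries and 28460, 31360 and 30010 CPM in the WT libraries, and changed by -0.49 (SE 0.09, adjusted p = 0.0148). Col6a2, a chain of the type VI collagen around muscle fibres, was at 2359, 2398 and 2807 CPM in the SMA libraries and 3290, 4012 and 3726 CPM in the WT libraries, and changed by -0.54 (SE 0.09, adjusted p = 0.0128). The list median was -0.62, -0.28 and -0.17 in SMA libraries 1, 2 and 3, against a macrophage marker median of 1.16, 0.92 and 0.66 in the same libraries. With single libraries left out 0 to 14 of the 24 were called, and 0 passed when library 2 of either genotype or WT library 3 was missing. With SMA libraries 1 and 2 both left out 0 were called lower (0.162% of all genes then tested) and the median was -0.17.

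Enzymes that process collagen and genes of other matrix proteins shared the sign. Of 22 crosslinking and folding genes 0 were higher, 6 lower and 16 did not pass (median -0.17). They were the prolyl hydroxylase family gene P3h3 (-0.39), Crtap (-0.29), the procollagen proteases Adamts2 (-0.41) and Bmp1 (-0.34), the enhancer Pcolce (-0.41) and the lysyl oxidase gene Loxl2 (-0.45). Adamts2 was at 512, 529 and 559.5 CPM in the SMA libraries and 652, 753 and 723 CPM in the WT libraries, with no overlap. Of 13 small leucine-rich proteoglycans Prelp (-0.40) and Lum fell, and of 34 matricellular and elastic fibre genes 4 fell, among them Sparc (-0.47) and Thbs3 (-0.46). Spp1 and Tgfbi (0.47) rose in that list, and macrophages express both. Over the 4 matrix lists 93 distinct genes were tested, 2 were higher, 18 lower and the median was -0.22. Among all genes tested 2.73% were higher and 1.56% lower. Without WT library 3 each of the 4 lists held 0 or 1 called genes.

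**Figure D4:**
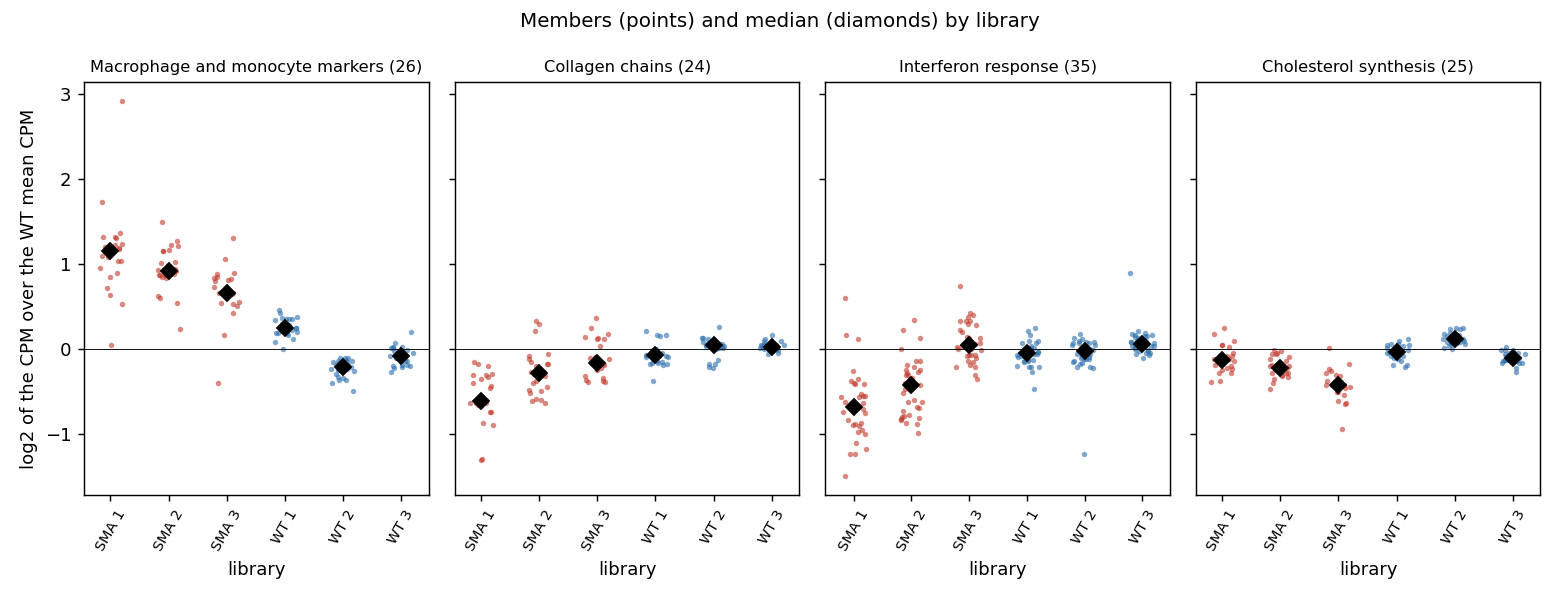
Members (points) and median (diamonds) of 4 gene lists in each library, as log2 of the CPM over the WT mean CPM. Points are red for SMA and blue for WT, and values at 0 CPM are not drawn. The macrophage and collagen medians of SMA library 3 lie nearest WT, its interferon median of 0.04 is at WT level, and its cholesterol synthesis median of -0.42 is the lowest of all libraries.

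Proteases and their inhibitors changed in both directions. Of 28 metalloproteinase and inhibitor genes 3 were higher, 4 lower and 21 did not pass (median 0.02). Mmp14, the membrane collagenase of stromal cells, was at 627, 722 and 795 CPM in the SMA libraries and 969, 1059 and 1002 CPM in the WT libraries (-0.50), and the inhibitor gene Timp2 at 412, 480.5 and 444 CPM in the SMA libraries and 560.0, 591 and 573 CPM in the WT libraries (-0.37). Both fell without overlap, whereas Timp3, which binds the matrix, rose (0.43). Adam8, a protease of myeloid cells, was at 157, 116 and 85.9 CPM in the SMA libraries and 63.7, 41.8 and 56.2 CPM in the WT libraries (1.15), with SMA library 1 the highest. In the plasminogen system Serpine2 fell, and the urokinase receptor gene Plaur (0.35) and the urokinase inhibitor gene Serpinb2 (1.95) rose, with 7 of 10 not passing.

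Secreted signals of the stroma both rose and fell, where 4.29% of all genes tested passed. Of 25 TGF-beta pathway genes Lrrc32, which encodes GARP, the surface anchor of latent TGF-beta, rose (0.50) and Fstl1 fell (-0.36). Lrrc32 was at 77.9, 75.2 and 68.3 CPM in the SMA libraries and 52.1, 51.4 and 53.6 CPM in the WT libraries, while Tgfb1 itself was at 103, 94.7 and 92.4 CPM in the SMA libraries and 81.1, 83.2 and 81.5 CPM in the WT libraries and did not pass (adjusted p = 0.0554). Of 24 BMP pathway genes Bmp7 (0.94) and the target Id2 (0.52) rose, and Bmp1, which is a procollagen protease despite its name, and the target Id3 (-0.28) fell. Of 29 secreted Wnt regulators and targets 2 were higher and 4 lower. Sfrp5 (1.42) and Wif1 (1.13) rose, and Rspo2 (-1.46), Wnt5b (-0.86), Draxin and Sfrp2 (-0.35) fell. Sfrp5 was low, at 4.4, 4.2 and 3.2 CPM in the SMA libraries and 2.2, 0.80 and 1.4 CPM in the WT libraries. Sfrp2 had a mean of 1338 CPM over the 6 libraries. Rspo2 was at 0.588, 1.33 and 1.44 CPM in the SMA libraries and 3.04, 2.50 and 3.79 CPM in the WT libraries, which is low in every library. Gli3 of the Hedgehog pathway fell (-0.31) and Lfng of the Notch pathway rose (0.64), and of the other genes of both lists only Timp3, a Hedgehog list member, passed.

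Genes of growth factor carriers, nerve-related signals and vessel growth both rose and fell. Among all genes tested 4.29% passed (2.73% higher and 1.56% lower). Igfbp3, a carrier of insulin-like growth factors, was at 60.5, 77.8 and 70.8 CPM in the SMA libraries and 45.7, 47.4 and 51.1 CPM in the WT libraries, and changed by 0.54 (SE 0.09, adjusted p = 0.0128). Igfbp4, another carrier, was at 403, 495 and 502 CPM in the SMA libraries and 588, 604 and 603 CPM in the WT libraries (-0.36), so the carriers moved oppositely, while the other 15 of 17 genes of the system did not pass. Of 45 axon guidance genes 2 were higher (Sema4d 0.80 and Plxnc1 0.36) and 4 lower (Draxin, Epha4 -0.83, Efnb1 -0.45 and Rgma -0.36). Epha4, an ephrin receptor, was at 14.3, 19.2 and 18.96 CPM in the SMA libraries and 26.9, 30.6 and 36.2 CPM in the WT libraries, with SMA library 1 the lowest. Of 21 neurotrophic genes the receptor genes Sort1 (0.41) and Ngfr (0.84) and the factor gene Manf (0.40) rose, and Gdnf, a survival factor of motor neurons, did not pass (-0.12, adjusted p = 0.665). Of 19 vessel growth genes Vegfa (0.27), Pgf (0.89) and Angpt2 (0.92) rose and the vessel-stabilising factor gene Angpt1 fell (-0.47), so the 2 angiopoietin genes had opposite signs.

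Interferon response genes separated the SMA libraries from each other. Of 35 tested 0 were higher, 3 lower (among them Stat2 -0.51 and Bst2 -0.56) and 32 did not pass, with a median of -0.35. Members lay below every WT library at 32 of 35 in SMA library 1, at 30 in SMA library 2 and at 9 in SMA library 3, and above every WT library at 2, 2 and 13. Of all genes tested 33.8%, 31.5% and 28.6% lay below every WT library in SMA libraries 1, 2 and 3, and 32.1%, 29.4% and 28.7% above, so the low count in SMA library 3 was near the share of all genes. Isg15, a ubiquitin-like interferon product, was at 30.5, 29.8 and 51.9 CPM in the SMA libraries and 52.9, 53.98 and 56.99 CPM in the WT libraries. Ifit1, which binds foreign RNA, was at 19.7, 30.1 and 58.2 CPM in the SMA libraries and 43.6, 43.4 and 51.96 CPM in the WT libraries. SMA libraries 1 and 2 were thus low at both genes and SMA library 3 was within or near the WT range. Without SMA library 3, 25 of the 35 were called lower, where 3.24% of all genes then tested were. The median was 0.03 with SMA libraries 1 and 2 both left out.

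Interferon acts through factors that bind repeats of GAAA in promoters. In the RefSeq promoter windows of build GRCm38.p6, taken as the 250 bases before the start, the letters GAAA, any 2 bases, then GAAA, on either strand, occurred in 3.46% of 27025 genes and in 14 of the 26 tested members with a window. Stat2 and Bst2 held a match. They are shown with Isg15, whose libraries were split as above, with the matches in capitals (where matches overlap they run together). The windows are chr10:128270248-128270497, plus strand for Stat2, chr8:71537473-71537722, minus strand for Bst2 and chr4:156200819-156201068, minus strand for Isg15, each printed on the strand of its gene.
Stat2: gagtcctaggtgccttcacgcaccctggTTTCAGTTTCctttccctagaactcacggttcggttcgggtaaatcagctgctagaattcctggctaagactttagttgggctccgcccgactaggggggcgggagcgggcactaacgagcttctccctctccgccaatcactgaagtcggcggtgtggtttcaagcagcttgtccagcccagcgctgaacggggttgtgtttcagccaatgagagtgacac
Bst2: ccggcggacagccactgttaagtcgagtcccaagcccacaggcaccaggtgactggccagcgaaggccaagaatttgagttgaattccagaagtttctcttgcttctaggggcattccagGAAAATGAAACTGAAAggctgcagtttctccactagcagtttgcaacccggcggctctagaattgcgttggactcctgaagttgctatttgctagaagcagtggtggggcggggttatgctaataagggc
Isg15: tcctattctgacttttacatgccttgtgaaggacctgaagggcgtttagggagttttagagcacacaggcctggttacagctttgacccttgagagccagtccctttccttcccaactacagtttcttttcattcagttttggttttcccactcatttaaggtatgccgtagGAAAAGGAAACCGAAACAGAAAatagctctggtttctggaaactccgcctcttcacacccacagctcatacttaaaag
In Stat2 the match begins 222 bases before the start, in Bst2 the nearest match ends 115 bases before it, and in Isg15 57 bases before it. A match describes the letters only, and binding was not measured.

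Cholesterol synthesis showed the opposite order of SMA libraries. Of 25 genes 0 were higher, 3 lower (Hmgcs1, Stard4 -0.32 and Sc5d -0.37) and 22 did not pass, with a median of -0.24 and all 25 below 0. The list median was -0.12, -0.23 and -0.42 in SMA libraries 1, 2 and 3, and members lay below every WT library at 13, 19 and 24 of the 25, where 33.8%, 31.5% and 28.6% of all genes tested did. Hmgcs1, an early enzyme of the pathway, was at 181, 181 and 154 CPM in the SMA libraries and 253, 240.0 and 221 CPM in the WT libraries, and changed by -0.47 (SE 0.08, adjusted p = 0.0132). With SMA libraries 1 and 2 both left out the median was -0.43. That fit sets SMA library 3 alone, the lowest library for this list, against WT. Insig1, another member of the list, is like the enzymes a target of the sterol-sensing factor SREBP2. A sterol element (TCACNCCAC, either strand) stood in the window of Hmgcs1 (chr13:119690101-119690350, plus strand) and in 1.22% of all genes with a window, and Hmgcs1 was the only one of 17 members with a window to hold it.
Hmgcs1: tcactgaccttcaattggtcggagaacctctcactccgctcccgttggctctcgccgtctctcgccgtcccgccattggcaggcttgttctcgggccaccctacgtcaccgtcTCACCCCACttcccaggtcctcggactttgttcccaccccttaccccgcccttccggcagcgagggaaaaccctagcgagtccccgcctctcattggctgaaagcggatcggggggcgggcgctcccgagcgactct
The match, in capitals, lies 129 to 137 bases before the start.

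The unfolded protein response had rises and no falls, where 2.73% of all genes tested were called higher. This response raises chaperones when proteins accumulate in the endoplasmic reticulum. Of 29 genes 5 were higher, 0 lower and 24 did not pass, with a median of 0.17. Sdf2l1, a chaperone partner in the endoplasmic reticulum, was at 58.5, 45.5 and 38.7 CPM in the SMA libraries and 21.3, 28.7 and 22.4 CPM in the WT libraries, and changed by 0.98 (SE 0.15, adjusted p = 0.00983). Creld2, a secreted stress-induced isomerase, was at 87.9, 74.1 and 65.6 CPM in the SMA libraries and 45.04, 55.9 and 51.3 CPM in the WT libraries, and changed by 0.58 (SE 0.11, adjusted p = 0.0195). The co-chaperone genes Hyou1 (0.55) and Dnajc3 (0.29) and the secreted factor gene Manf (0.40) were the other 3. At all 5 genes SMA library 1 was the highest library, and SMA library 3 the lowest of the SMA libraries. The summed macrophage markers had the same order, and their part was not tested. The order was common among the 549 higher genes, with SMA library 1 farthest from the WT mean at 400 and SMA library 3 nearest at 430. Hspa5, the main chaperone of the compartment, was at 2860, 2568 and 2370 CPM in the SMA libraries and 1969, 2295 and 2027 CPM in the WT libraries and did not pass (0.31, adjusted p = 0.0743). Ddit3, an effector of the terminal stress response, did not pass either (-0.15, adjusted p = 0.418). Ero1b, an oxidase that drives disulfide formation there and is no member of the list, belonged to the stable set at 23.8, 19.7 and 18.7 CPM in the SMA libraries and 11.8, 10.5 and 11.4 CPM in the WT libraries (0.88).

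The ER stress element, CCAAT, any 9 bases, then CCACG, on either strand, was rare among all windows (0.13% of genes) and stood in 9 of the 26 tested members with a window. The 9 were Hspa5, Hsp90b1, Pdia6, Calr, Canx, Syvn1, Derl3, Dnajc3 and Creld2, and 2 of them (Dnajc3 and Creld2) were among the rises. The other 7 did not pass, so in these libraries the element went with called and with uncalled genes. The windows of the 2 that rose are chr14:118937682-118937931, plus strand for Dnajc3 and chr15:88819396-88819645, plus strand for Creld2, with the element in capitals.
Dnajc3: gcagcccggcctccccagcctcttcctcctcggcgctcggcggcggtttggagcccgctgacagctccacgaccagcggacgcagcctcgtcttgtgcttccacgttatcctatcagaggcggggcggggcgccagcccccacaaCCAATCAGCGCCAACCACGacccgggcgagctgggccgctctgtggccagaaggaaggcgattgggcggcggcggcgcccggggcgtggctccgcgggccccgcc
Creld2: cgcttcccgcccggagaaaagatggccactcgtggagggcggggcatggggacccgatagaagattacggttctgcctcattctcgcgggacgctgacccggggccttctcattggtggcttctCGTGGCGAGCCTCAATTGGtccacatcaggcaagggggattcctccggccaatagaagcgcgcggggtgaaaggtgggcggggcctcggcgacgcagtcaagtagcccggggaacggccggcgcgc
The element lies 87 to 105 bases before the start in Dnajc3 and 108 to 126 bases before it in Creld2, where it reads on the opposite strand.

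Genes of fat formation are set beside the 4.29% of all genes tested that passed (2.73% higher and 1.56% lower). Of 25 adipogenic transcription factors 0 were higher, 2 lower and 23 did not pass (median -0.15). Ebf1, an early factor of the fat lineage, was at 187, 193 and 206 CPM in the SMA libraries and 245, 264 and 262 CPM in the WT libraries (-0.40), and Cebpd, an early inducer, at 158, 187 and 189 CPM in the SMA libraries and 269, 249.6 and 224 CPM in the WT libraries (-0.47), both without overlap. Pparg, the master factor of fat cells, was at 13.7, 12.6 and 13.1 CPM in the SMA libraries and 13.3, 14.1 and 15.5 CPM in the WT libraries and did not pass. Of 17 mature fat cell genes and of 17 fatty acid synthesis genes none passed, with medians of 0.05 and -0.06. Lists this short can hold no passing gene at the share of all genes.

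Housekeeping and growth programs each held 0 to 3 passing genes in lists of 16 to 32, where 4.29% of all genes tested passed. These counts were not tested against that share. Of 32 cytosolic ribosomal protein genes none passed, and all 32 lay below 0 with a median of -0.09. At 17 of the 32 all SMA libraries lay below WT, a larger share than the 13.1% of all genes tested. Of 29 oxidative phosphorylation genes only Ndufa1 passed (-0.29), and of 26 glycolysis and hypoxia genes only Vegfa. The median of the glycolysis and hypoxia genes was 0.15, with 21 of the 26 above 0. Of 32 cell cycle genes the replication genes Cdc6 (0.55) and Mcm3 (0.43) rose. The cell cycle median was 0.11, with 25 of the 32 above 0. At 12 of the 32 all SMA libraries lay above WT, a larger share than the 12.2% of all genes tested. Of 25 p53 targets Mdm2 (0.33), Pmaip1 (0.41) and the cell cycle inhibitor gene Cdkn1a (0.36) rose. Among 19 imprinted growth genes Peg10 and Mirg (-0.35) fell, and among 16 clock genes Per1 fell (-0.41) and Hlf rose (0.55). Of 21 immediate early genes, which respond to tissue dissociation, none passed and the median was -0.08.

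How many genes passed depended on single libraries of both genotypes. The share of genes called was 2.69%, 0.695% and 7.57% when SMA library 1, 2 or 3 was left out, and 3.18%, 0.776% and 0.196% when WT library 1, 2 or 3 was. Of the 152 named genes that passed 30 did so in each of these 6 fits. No called gene changed sign in any of them. Of the 863 genes 825 also passed without SMA library 3 and 40 without WT library 3. Of the same genes 72 still passed with SMA libraries 1 and 2 both left out; such a fit takes the spread from the WT libraries for the single SMA library.

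**Figure D5:**
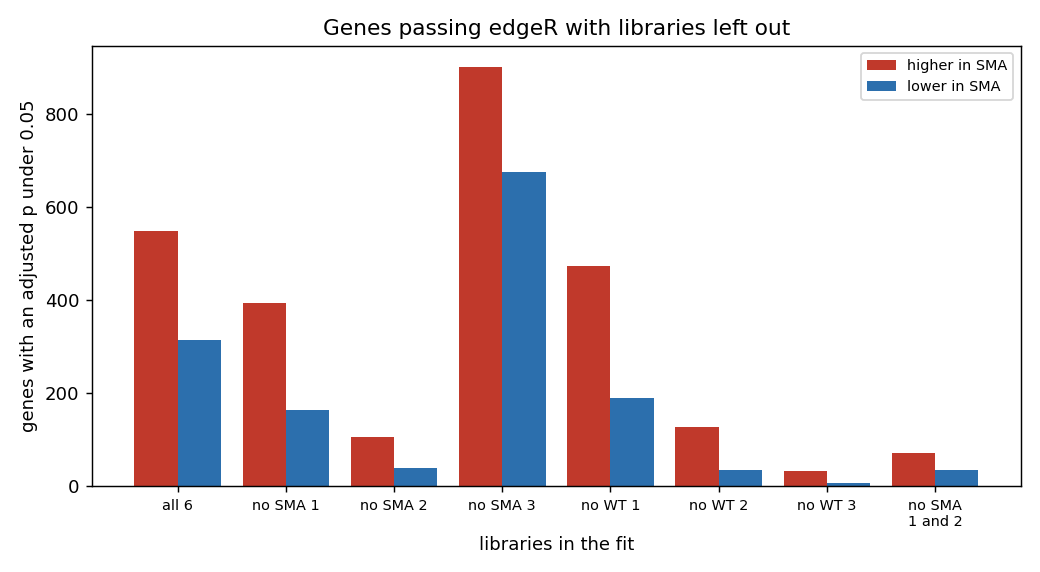
Genes with an adjusted p under 0.05 higher (red) and lower (blue) in SMA, with all 6 libraries and with libraries left out. The bars start at 0, are highest without SMA library 3 (902 higher and 675 lower) and lowest without WT library 3 (34 higher and 7 lower).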

How the data were processed

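Values for the 6 BaCl2 libraries were whole-number counts per gene, deposited by the authors as 1 table of 56953 genes, 23999 of them at 0 in all libraries. The submitters' processing notes name fastp, Salmon, featureCounts and DESeq2 without roles; the sources used here do not name the aligner, build or annotation. The kit is directional per the labels. The authors' deposited log2 fold changes and p-values were read but support no result here. Another 6 z-score columns and the 8 glycerol columns were not used.

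The counts were filtered (filterByExpr), TMM-scaled and tested with edgeR 4.0.16 (quasi-likelihood F test, genotype only) in R 4.3.3, and 20119 genes were tested. Alternatives used RLE factors, DESeq2 1.42.0, limma 3.58.1 (voom with sample weights), other filters, a replicate block, and libraries left out. Counts were also simulated for each gene independently, with 200 changed genes above 1 CPM. Of genes changed 1.5-fold, 2-fold and 4-fold 56.7%, 91.0% and 100.0% were recovered, with 2.37% of calls false. The simulation held no library differences shared between genes, so these rates need not hold for the real libraries.

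Members and lists were chosen with earlier results of these data known, and lists were described without a test. The rule named passing, non-overlapping genes at 1 CPM or more: the 10 with the smallest p, the 10 with the highest CPM and the 10 largest stable changes per direction, up to 4 passing members per list by smallest p, and 9 fixed genes. Further list members, Hal, Pianp and Ero1b were named after their values were seen. A few genes the rule names are not reported here. Promoters are RefSeq windows (GRCm38.p6). A gene at 1 CPM rests on at least 97.7 counts, and depth gives counting error only.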

Additional observations from a re-analysis of the deposited data

How the results depend on the processing

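The counts of genes passing depended on the tool, the filter and single libraries, and the cause was not tested. Against 863 genes (549 higher, 314 lower), DESeq2 called 1758 (1006 higher, 752 lower), limma voom with sample weights 4115 (2025 higher, 2090 lower) and edgeR with no filter on low counts 1867 (1084 higher, 783 lower). RLE factors gave 860 and a minimum mean of 1 CPM gave 899. Leaving out each library in turn gave 41 to 1577 genes in all, 34 to 902 higher and 7 to 675 lower. With SMA libraries 1 and 2 both left out 108 passed (72 higher, 36 lower). The replicate block gave 1144 (664 higher, 480 lower), with 820 of the 863 among them. Libraries of the same number did not deviate together (correlations 0.014, -0.035 and 0.023), so the samples share only a number and are not read as paired.

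Of 157 named genes 152 passed, 30 of them in each fit with 1 library left out, and none of the 152 changed sign under any alternative. Of the 5 that did not pass, Pdgfra (-0.166 to 0.083), Cebpa (-0.017 to 0.084) and Adipoq (-0.319 to 0.514) changed sign with libraries left out. Depth limits genes far below 1 CPM, such as Adipoq (0.153 CPM on average in WT).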

Other observations

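Several called genes of the coagulation, innate defence and cell surface kind lie outside the gene lists described above. Thbd, which encodes thrombomodulin, a cell surface brake on clotting, was at 715, 668 and 851 CPM in the SMA libraries and 526, 507 and 491 CPM in the WT libraries, with SMA library 3 the highest, and changed by 0.55 (SE 0.09, adjusted p = 0.0105). Its log2 fold change was 0.74 (adjusted p = 0.0124) with SMA libraries 1 and 2 both left out. Ptx3, a secreted pattern recognition protein of stromal cells, was at 1233, 1211 and 1149 CPM in the SMA libraries and 1548, 1717 and 1675 CPM in the WT libraries (-0.46). Clec2d, a C-type lectin, was at 30.4, 31.1 and 31.9 CPM in the SMA libraries and 41.9, 48.5 and 44.4 CPM in the WT libraries (-0.53). Both fell with every SMA library below every WT library.

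Scara3, a scavenger receptor family member, was at 125, 150.1 and 143 CPM in the SMA libraries and 201, 230.1 and 216 CPM in the WT libraries (-0.63), and Plac9, a small secreted protein gene, at 80.1, 95.9 and 83.6 CPM in the SMA libraries and 127, 156 and 142 CPM in the WT libraries (-0.71). Both were lower by more than most called falls, whose median was -0.41. Astn2, an astrotactin of the nervous system, was chosen for mention after its values were seen, at 15.1, 13.9 and 11.8 CPM in the SMA libraries and 22.03, 28.2 and 31.7 CPM in the WT libraries (-1.01).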
